A study of Mus musculus with 3 samples.

Results

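The genes described here are the secreted and membrane-bound cues that steer growing axons, and the receptors that read them: semaphorins with their neuropilin and plexin receptors, slits with robos, netrins with Dcc, Neo1 and the Unc5 family, and ephrin-A ligands with EphA receptors. They were taken by gene symbol from an array of 45037 probe sets that are not controls, of which 149, annotated to 63 of 18193 genes, belong to these families. The letters of the Unc5 family name also match Unc50, an unrelated gene with 3 probe sets, which was left out. RNA came from the genital tubercle, the bud from which penis or clitoris develops, of 3 mouse embryos at embryonic day 14 (Theiler stage 22), dissected by the fluorescence of an Acta2 (smooth muscle actin) reporter with EYFP. All 3 carry the labels male and FVB/N, the strain of the mothers, whose mates carried the SMAA/EYFP transgene. Each sample was its own array, none was pooled, and no sample is a control. The samples are labelled alike except for the developmental landmark, given as fingers that can be seen in replicate 3 and as indented borders of the footplates in replicates 1 and 2. No label says that they came from separate litters. The p-values rest only on the spread between replicates 1 and 2, which is assumed to hold for replicate 3 and may be technical.

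The sex label did not hold for every sample. Xist, the RNA by which female cells silence an X chromosome, read 61883 in replicate 3, against 8.05 and 118 in replicates 1 and 2. The Y-linked Eif2s3y read 37.9 in replicate 3, against 4384 and 3738 in replicates 1 and 2. Replicate 3 therefore goes against its male label, and wherever it differs from the other samples its landmark, its sex and any other feature of that embryo cannot be told apart.

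Each of these families works as a ligand and receptor system. Class 3 semaphorins are secreted and bind a neuropilin, which holds the ligand while a plexin passes the signal into the cell and collapses the growth cone. Most other semaphorins are anchored in the membrane and bind plexins directly. Slits repel cells and axons through robo receptors, netrins attract through Dcc and repel through Unc5 receptors, and ephrin-A ligands, tethered to the membrane by a lipid anchor, signal on contact to EphA receptor kinases. The same systems act outside the nervous system, in blood vessels, mesenchyme and epithelia.

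A signal was called above background when it exceeded the 95th percentile of 81 probe sets for sensory receptors (olfactory, vomeronasal and bitter taste), which gave 197, 136 and 253 signal units in replicates 3, 1 and 2. Signals are printed as deposited, on a linear intensity scale. SDs and differences are on the log2 scale after the samples were aligned on their medians. With 3 arrays every value has limited precision. All 5 markers of genital tubercle mesenchyme passed background in 3 of 3 samples, with Hoxd13 at 43365 in replicate 3, and 39032 and 39846 in replicates 1 and 2. Markers of nerve and Schwann cells passed throughout for 8 of 13 genes, endothelial markers for 8 of 10, epithelial markers for 6 of 7 and smooth muscle markers for 3 of 8, with Cnn1 and Lmod1 above background in no sample. The summed signal of the nerve list was 11827 in replicate 3, against 14645 and 11459 in replicates 1 and 2, but without Erbb3, its brightest gene, it was 5710.4 in replicate 3, against 4868 and 5887. That of the endothelial list was 16533 in replicate 3, against 13298 and 13673 in replicates 1 and 2. The mesenchyme list lay between the others in replicate 3, with a sum of 138968, against 134687 and 143978 in replicates 1 and 2. The remaining lists of tissue markers had their lowest sum in replicate 3. Epithelial markers summed to 80127 in replicate 3, against 104468 and 90794 in replicates 1 and 2. Smooth muscle markers summed to 3323 in replicate 3, against 6597 and 4076 in replicates 1 and 2, with Acta2, the gene of the reporter, at 2378 in replicate 3, against 5273 and 2736 in replicates 1 and 2. Erythroid markers summed to 1610.4 in replicate 3, against 6242 and 4874 in replicates 1 and 2. Liver markers summed to 8957 in replicate 3, against 110262 and 51633 in replicates 1 and 2, and skeletal muscle markers to 2555 in replicate 3, against 21811 and 5580.5. The liver marker Apoa1 and the muscle marker Ttn were above background in replicates 1 and 2 but not in replicate 3. The liver marker Ahsg was above background in replicate 1 alone. The part of these tissues in the values below was not tested. In whole tissue, fewer cells of a type and less RNA per cell cannot be told apart.

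Most guidance genes were above background. When each gene was represented by its brightest probe set, 49 of 63 guidance genes (77.8%) were above background in 3 of 3 samples, beside 60.5% of all genes. By the same probe sets another 6 were above background in 1 or 2 samples and 8 in none. Of single probe sets, 94 of 149 (63.1%) were above background in 3 of 3 samples, beside 48.0% of all probe sets. The latter include 9160 annotated to no gene and 932 to more than 1. The shares by gene were not matched for the number of probe sets per gene. Without replicate 3, the sample that goes against its label, 50 genes and 97 probe sets were above background in both remaining samples. Receptors reached 25 of 29 genes and ligands 24 of 34. The neuropilins, the plexins, the ephrin-A ligands and the pair Dcc and Neo1 were above background in 3 of 3 samples for every gene measured (2 of 2, 9 of 9, 5 of 5 and 2 of 2), whereas 3 of 6 netrins and 1 of 3 slits were.

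**Figure D1:**
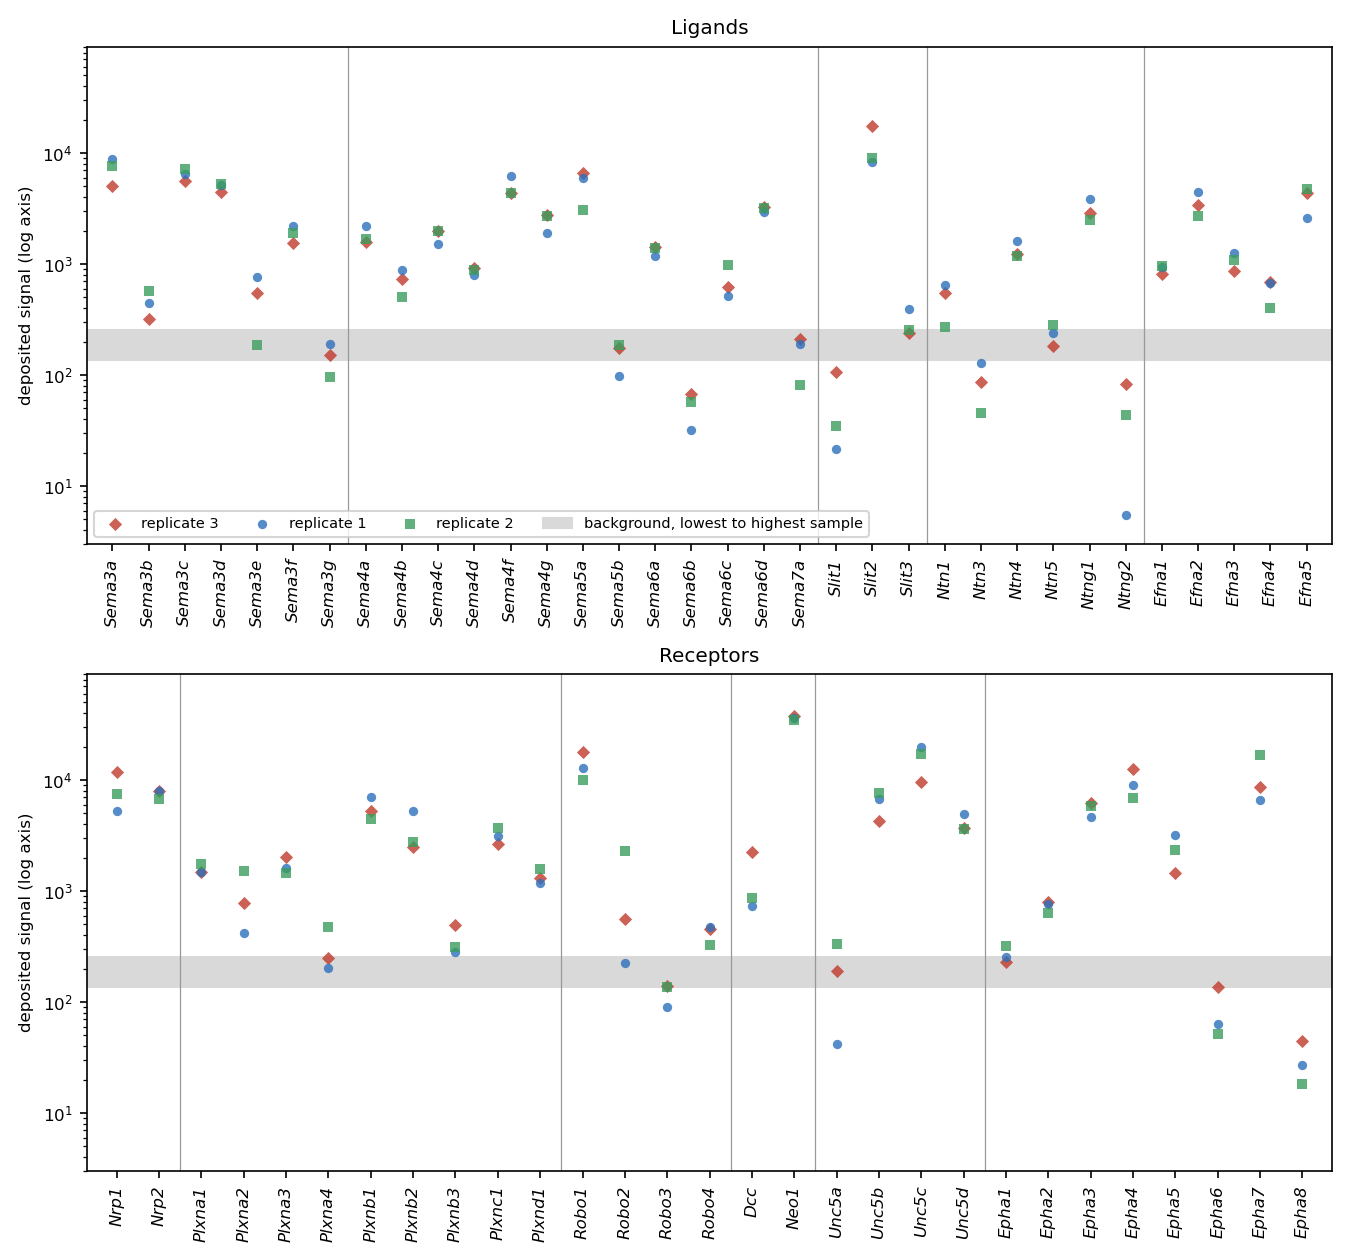
Deposited signal (log axis) of the 63 guidance genes, by the brightest probe set of each, with ligands above and receptors below. Each point is 1 sample (replicates 3, 1 and 2), vertical lines part the families, and the grey band spans the background of the samples, from 136 to 253. Slit2 and Dcc are highest and Unc5c and Epha5 lowest in replicate 3, and 8 genes are above background in no sample.

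Of the secreted class 3 semaphorins, 5 of 7 genes passed background throughout. Sema3a, which repels sensory and sympathetic axons through Nrp1, read 5029 in replicate 3, and 8836 and 7692 in replicates 1 and 2. Sema3c, which acts on migrating neural crest cells of the heart outflow tract, read 5545 in replicate 3, and 6452 and 7099.7 in replicates 1 and 2. Both were lower in replicate 3 than in either other sample, though Sema3c by little. Sema3d read 4492 in replicate 3, and 5162 and 5211 in replicates 1 and 2, within an SD of 0.15 on the log2 scale (n = 3). Sema3f, a ligand of Nrp2, averaged 1879 ± 326 and Sema3b 446 ± 125 signal units (SD, n = 3). Sema3e, which binds Plxnd1 without a neuropilin, was above background in replicates 3 and 1, with 550.3 in replicate 3, and 767 and 185 in replicates 1 and 2. Sema3g was above background in replicate 1 alone, with 151 in replicate 3, and 188 and 96.5 in replicates 1 and 2.

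Among the other semaphorins 10 of 13 genes passed background throughout. Sema5a, a membrane semaphorin with thrombospondin repeats, read 6605 in replicate 3, and 5994 and 3031 in replicates 1 and 2. Its low value in replicate 2 gave an SD of 0.71 on the log2 scale, the fifth largest of the 49 guidance genes above background throughout. That order rested on the brightest probe set. The second one was highest in replicate 2, at 2478 in replicate 3, and 777 and 3428 in replicates 1 and 2. Another read 1588 in replicate 3, and 336 and 1253 in replicates 1 and 2, with replicate 1 lowest. Sema4f read 4327 in replicate 3, and 6187 and 4331 in replicates 1 and 2, with replicate 1 the highest. Sema6d, a transmembrane ligand of Plxna1, held nearly the same level in every sample, at 3287 in replicate 3, and 2941 and 3166 in replicates 1 and 2. Sema4d, the ligand of Plxnb1, was as even, at 911 in replicate 3, and 792 and 889 in replicates 1 and 2. Sema6a, another transmembrane semaphorin, read 1412 in replicate 3, and 1174 and 1393 in replicates 1 and 2. These had SDs of 0.10, 0.09 and 0.10 on the log2 scale. Sema4a, Sema4b, Sema4c, Sema4g and Sema6c were above background in 3 of 3 samples, with mean signals between 703 and 2452. Sema7a, which is lipid-anchored and binds Plxnc1, exceeded background in replicates 3 and 1, with 209 in replicate 3, and 188 and 80.7 in replicates 1 and 2. The brightest probe sets of Sema5b and Sema6b were above background in no sample.

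The semaphorin receptors were represented in full. Nrp1, which also binds vascular endothelial growth factor, read on probe set 1418084_at 11772 in replicate 3, against 5267 and 7440.0 in replicates 1 and 2. Nrp2 read 7984 in replicate 3, and 7873 and 6694 in replicates 1 and 2. On these brightest probe sets its SD was 0.25 on the log2 scale against 0.56 for Nrp1. The 4 probe sets of Nrp2 disagreed, with replicate 3 highest on 1 and lowest on 2. Their SDs reached 0.80, and those of the probe sets of Nrp1 1.32. Plxnb1, the receptor of Sema4d, read 5299 in replicate 3, and 6953 and 4425 in replicates 1 and 2. Plxnc1, the receptor of Sema7a, read 2667 in replicate 3, and 3119.5 and 3680.0 in replicates 1 and 2. No sample was highest for both. Plxnb2 read 2500.4 in replicate 3, and 5278 and 2734 in replicates 1 and 2, so that replicate 1 stood above the other samples. Plxna1, a partner of neuropilins, was the most even of the guidance genes after alignment, at 1495 in replicate 3, and 1471 and 1742 in replicates 1 and 2 (SD 0.04 on the log2 scale). Plxnd1, the receptor of Sema3e in blood vessels, was nearly as even at 1299 in replicate 3, and 1186 and 1581 in replicates 1 and 2. Plxna2 was not on its brightest probe set: it read 778 in replicate 3, and 417 and 1527 in replicates 1 and 2, an SD of 0.82. Its other probe sets above background throughout were more even, with SDs of 0.28 and 0.25. Plxna3, Plxna4 and Plxnb3 were above background in 3 of 3 samples, with means of 1695 ± 289.9, 308 ± 145 and 364 ± 117 signal units (SD, n = 3).

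In the slit and robo system 1 ligand and 3 of 4 receptors were above background throughout. Slit2 (probe set 1424659_at) read 17304 in replicate 3, against 8341 and 8965 in replicates 1 and 2, so replicate 3 stood well above both others, which lay close together. Its receptor Robo1 read 18026 in replicate 3, against 12864 and 10073 in replicates 1 and 2. Robo2, a second slit receptor, had the widest spread of all guidance genes above background throughout, with 559 in replicate 3, and 225 and 2272 in replicates 1 and 2 and an SD of 1.57 on the log2 scale. Robo4, a receptor of endothelial cells, read 449.6 in replicate 3, and 477 and 327 in replicates 1 and 2. Slit3 was above background in replicates 3 and 1, with 241 in replicate 3, and 391 and 252 in replicates 1 and 2. Slit1 and Robo3, a receptor of commissural neurons, were above background in no sample.

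Of the netrins, Ntn1, the classic attractant of commissural axons, read 544 in replicate 3, and 652 and 273 in replicates 1 and 2 and was only just above background in replicate 2. Ntn4, a laminin-like netrin of basement membranes, read 1232 in replicate 3, and 1604 and 1167 in replicates 1 and 2. Ntng1, a lipid-anchored netrin that does not act through Dcc, read 2875 in replicate 3, and 3837 and 2474 in replicates 1 and 2. In each of these 3 ligands replicate 2 was lowest. Ntn5 was above background in replicates 1 and 2, with 181 in replicate 3, and 241 and 284 in replicates 1 and 2, and Ntn3 and Ntng2 in no sample. Among the receptors, Neo1, which also binds repulsive guidance molecules, read 37626 in replicate 3, and 35888 and 34952 in replicates 1 and 2, an SD of 0.15 on the log2 scale. Dcc (probe set 1440487_at) read 2239 in replicate 3, against 726 and 867 in replicates 1 and 2, with replicate 3 clear of both others. The repulsive netrin receptor Unc5c (probe set 1449522_at) read 9625 in replicate 3, against 19786 and 16952 in replicates 1 and 2. Its relative Unc5b read 4278 in replicate 3, against 6664 and 7603 in replicates 1 and 2. Both were lowest in replicate 3, while Dcc was highest there. Unc5d read 3659.9 in replicate 3, and 4961 and 3612 in replicates 1 and 2. Unc5a exceeded background in replicate 2 alone, with 189 in replicate 3, and 41.8 and 336 in replicates 1 and 2.

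All 5 ephrin-A ligands were above background in 3 of 3 samples. Efna5 read 4349.8 in replicate 3, and 2589 and 4710.1 in replicates 1 and 2. Efna2 read 3395 in replicate 3, and 4405 and 2708 in replicates 1 and 2. Efna3 read 871 in replicate 3, and 1251 and 1081 in replicates 1 and 2. Efna1 and Efna4 averaged 905 ± 76.5 and 587 ± 163 signal units (SD, n = 3). No sample was the highest or the lowest for all of these ligands. Of the EphA receptors 6 of 8 were above background throughout. Epha7 read 8711 in replicate 3, and 6571 and 16833 in replicates 1 and 2, with replicate 2 well above the others on this brightest probe set. The second one was even, at 6053 in replicate 3, and 6158 and 6543 in replicates 1 and 2 (SD 0.07 on the log2 scale). Of the 4 probe sets of Epha7, 2 were highest in replicate 2. Epha4, which also binds ephrin-B ligands, read 12638 in replicate 3, against 8926 and 6834 in replicates 1 and 2. Epha3 read 6235 in replicate 3, against 4624 and 5846 in replicates 1 and 2, and both genes were highest in replicate 3 on these brightest probe sets. Of the 4 probe sets of Epha4 above background throughout, 1 was highest in replicate 3 and 3 in replicate 2. Epha5 (probe set 1435286_at) read 1438 in replicate 3, against 3194 and 2343 in replicates 1 and 2, the lowest value being that of replicate 3. Epha2, a receptor common in epithelia, averaged 731 ± 80.6 and Epha1 267 ± 47.4 signal units (SD, n = 3), and the level of Epha1 was close to background. Epha6 and Epha8 were above background in no sample.

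The spread between samples set the precision of these levels. Over the 49 guidance genes above background in 3 of 3 samples the median SD was 0.37 on the log2 scale, beside 0.33 over all such genes, and 19 of the 49 lay below that series median. Without replicate 3 it was 0.32, beside 0.33 over all genes. Among families with at least 3 such genes, medians ran from 0.29 in the semaphorins outside class 3 and 0.31 in class 3 to 0.44 in the plexins and 0.49 in the robos. Single genes ran from 0.04 (Plxna1) to 1.57 (Robo2). The 5 widest were Robo2, Dcc (0.88), Plxna2 (0.82), Ntn1 (0.78) and Sema5a (0.71). On their brightest probe sets they do not share 1 outlying sample. Replicate 2 was high for Robo2 and low for Ntn1 and Sema5a, and replicate 3 was high for Dcc. The second probe set of Sema5a was highest in replicate 2 instead. For Plxna2 replicate 3 lay about midway between replicate 1, the lowest, and replicate 2, the highest. Other probe sets of Plxna2 above background throughout had SDs of 0.28 and 0.25.

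**Figure D2:**
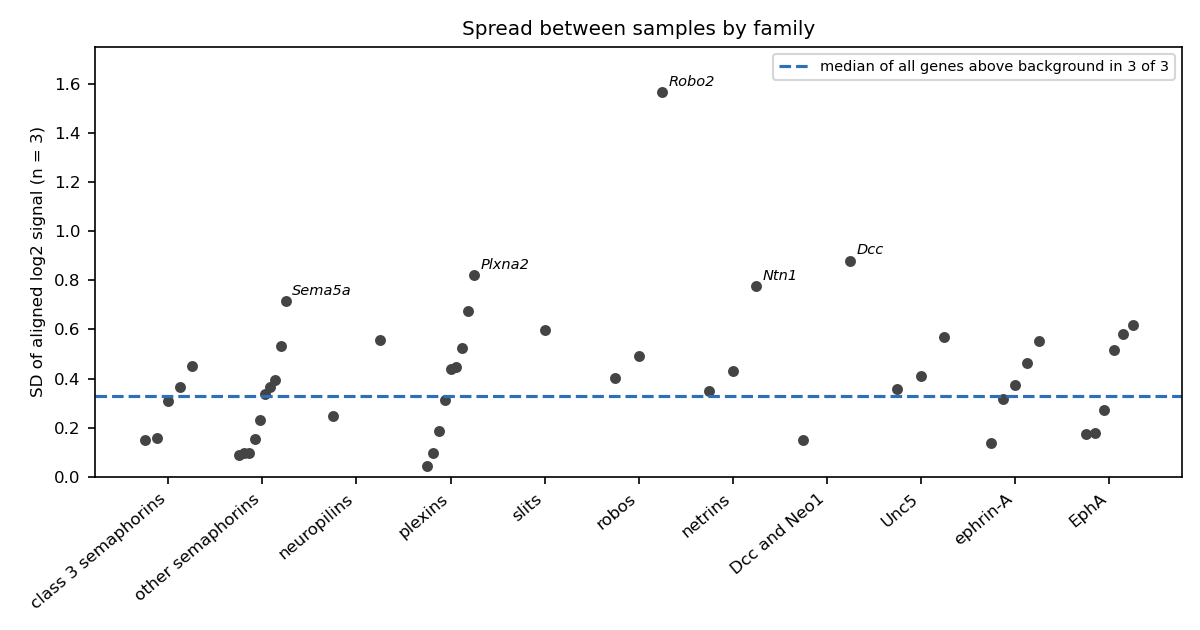
SD of aligned log2 signal over the 3 samples (vertical axis) for the 49 guidance genes above background in 3 of 3 samples, by family, with the brightest probe set of each gene as 1 point. The dashed line is the median of all genes above background in 3 of 3 samples, 0.33, and the 5 genes above 0.7 are named, with Robo2 highest at 1.57.

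Pairs of samples differed by over 2-fold for a larger share of guidance probe sets than of all probe sets. Between replicates 3 and 1 such differences were found in 25 of 98 guidance probe sets above background in both (25.5%), beside 13.6% of all probe sets. Of these 18 were higher in replicate 3, beside 9.85% of all probe sets, and 7 lower, beside 3.74%. Between replicates 3 and 2 it was 14 of 96 (14.6%), beside 10.5%, with 7 higher in replicate 3, beside 4.44%, and 7 lower, beside 6.04%. Between replicates 2 and 1 it was 27 of 97 (27.8%), beside 20.4%, with 20 higher in replicate 2, beside 13.4%, and 7 lower, beside 6.94%. The 18 higher in replicate 3 than in replicate 1 belonged to Nrp1, Dcc, Slit2, Epha3, Epha4, Epha7, Neo1, Sema3d, Sema5a, Ntng1 and Robo2. In those of Epha4, Sema3d, Ntng1 and Robo2, and in some of Dcc, Neo1 and Sema5a, replicate 2 was higher still. The brightest probe set of each gene gave smaller shares: 6 of 52, 6 of 49 and 7 of 50 in the same pairs (11.5%, 12.2% and 14.0%), beside 7.65%, 7.36% and 12.6% of all genes. These shares describe the list and were not tested.

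To compare the landmarks, replicate 3 was fitted against the other samples in limma, a linear model with variances moderated across probe sets. None of the 117 guidance probe sets tested passed a Benjamini-Hochberg adjusted p under 0.05, and neither did any of the 29065 probe sets in all (0.0%). At an unadjusted p under 0.05 limma gave 1 guidance probe set, a second one of Slit2, beside 2.08% of all probe sets. With 1 sample against 2, the fit has 1 residual degree of freedom, so a count of 0 does not show that levels were alike. Guidance probe sets lay above both other samples in replicate 3 in 28 of 94 cases (29.8%), beside 27.5% of all probe sets, and below both in 24 (25.5%), beside 26.3%, so these shares were near the background. Over 2-fold beyond both were 3 higher, beside 1.06% of all probe sets, namely 1 probe set each of Slit2, Dcc and Nrp1, and 1 lower, beside 0.828%, a weak probe set of Robo1 whose brightest one was highest in replicate 3.

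Several genes had more than 1 probe set to compare. Of 28 guidance genes with at least 2 probe sets above background in 3 of 3 samples, 5 (17.9%) had replicate 3 highest in each of them, beside 7.69% of all such genes: Slit2, Nrp1, Epha3, Sema6d and Efna5. Another 3 (10.7%) had it lowest in each, beside 7.92%: Epha5, Unc5c and Unc5b. The second probe set of Slit2 read 3123 in replicate 3, against 745 and 1037 in replicates 1 and 2, and the log2 difference of replicate 3 from the mean of the others was 1.03 ± 0.60 and 1.86 ± 0.61 (± SE from limma) for the brighter and the second. Nrp1 had replicate 3 highest in 4 of 4 probe sets, the second of which read 5624 in replicate 3, against 2090.2 and 1355 in replicates 1 and 2. Its brightest one differed by 0.94 ± 0.61. Dcc differed by 1.52 ± 0.60 on its brightest probe set and was highest in replicate 3 on 2 of 3. Another of its probe sets read 1186 in replicate 3, against 252 and 1875 in replicates 1 and 2.

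Epha5 was lowest in replicate 3 in 4 of 4 probe sets, with a log2 difference of -0.90 ± 0.67 on the brightest, and another of its probe sets read 279.8 in replicate 3, against 829 and 548 in replicates 1 and 2. Unc5c differed by -0.90 ± 0.63 and -0.35 ± 0.60 on its 2 probe sets and Unc5b by -0.71 ± 0.60 on its brightest. On its other probe set Unc5b read 256 in replicate 3, against 251 and 632 in replicates 1 and 2, so in deposited signal replicate 3 was not the lowest there. The adjusted p from limma was 1.00 for each of these genes. Without alignment replicate 2 was highest on both probe sets of Efna5, and with alignment on the all-probe-set median replicate 3 was not the highest on the brightest probe set of Sema6d. These genes were picked from the list by their order in replicate 3, so their agreement is a description and no test.

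**Figure D3:**
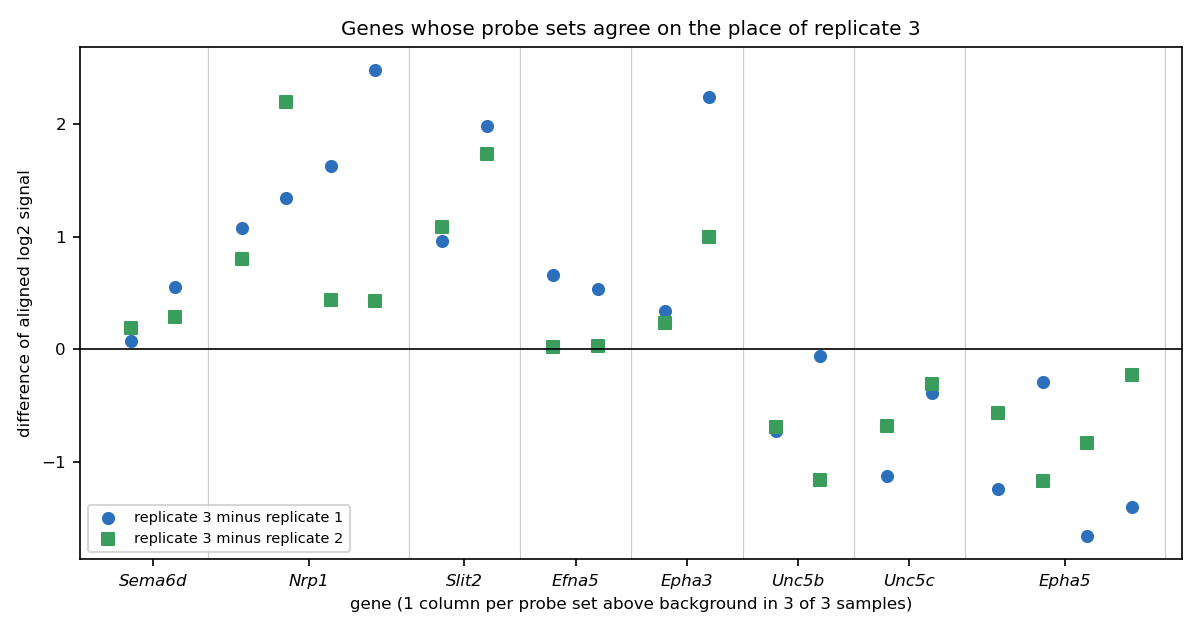
Difference of aligned log2 signal of replicate 3 from replicate 1 (circles) and from replicate 2 (squares), for the 8 guidance genes whose probe sets above background in 3 of 3 samples all place replicate 3 highest (left, 5 genes) or lowest (right, 3 genes). Each column is 1 probe set. Slit2 and Nrp1 lie above 0.4 in every comparison, while Efna5 lies at 0.03 against replicate 2.

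Class 3 semaphorins showed 1 shared order. On the brightest probe set all 5 genes above background in 3 of 3 samples (Sema3a, Sema3b, Sema3c, Sema3d and Sema3f) were lowest in replicate 3, beside 30.4% of all genes, whereas the other semaphorins had 6 of 10 highest there, beside 25.3% of all genes. The order held in the deposited signals and after quantile normalization, but with alignment on the all-probe-set median it held for 3 of 5, beside 25.5% of all genes, and 1 of 10 other semaphorins was then highest in replicate 3, beside 12.4%. It rested on the brightest probe sets: the second ones of Sema3a, Sema3c, Sema3d and Sema3f placed replicate 3 between the others, as in Sema3a with 828 in replicate 3, against 719 and 1623 in replicates 1 and 2. For Sema3c and Sema3d the differences were small, at -0.26 ± 0.60 and -0.18 ± 0.61 on the log2 scale. No difference between the semaphorin classes was tested.

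Probe sets of 1 gene often disagreed. Among the 46 guidance genes measured by several probe sets, 23 were split, with at least 1 passing background throughout and at least 1 not, beside 48.3% of all such genes. Plxnc1 was above background throughout on 2 of 6 probe sets, Epha1 on 1 of 3, Sema3b on 1 of 3, and Epha3 and Ntng1 on 2 of 4 each. Counting a gene by any of its probe sets also gave 49 genes.

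The disagreement had a direction that set replicate 2, and by less replicate 3, apart from replicate 1. Among probe sets other than the brightest, 17 of 45 (37.8%) were over 2-fold higher in replicate 2 than in replicate 1, beside 21.0% of such probe sets over all genes, and 3 were over 2-fold lower, beside 5.63%. On the brightest probe sets of the same kind of gene it was 2 of 40 (5.0%), beside 3.91%. The median difference was 0.47 on the log2 scale for the other probe sets and -0.19 for the brightest, beside 0.07 and -0.34 over all genes. The 17 probe sets belonged to 12 genes. In Sema3d the second probe set read 3573 in replicate 2, against 299.8 in replicate 1, while the brightest read 5211 in replicate 2, against 5162 in replicate 1. In Neo1 a weaker probe set read 2519 in replicate 2, against 273 in replicate 1, and in Epha4 the second read 7368, against 1128, whereas its brightest was lower in replicate 2, at 6834, against 8926 in replicate 1.

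The array's control probe sets for transcript ends and ribosomal RNA also differed between replicates 2 and 1, though not all one way. The 5′ probe set of β-actin read 28990.3 in replicate 2, against 3262 in replicate 1, and its 3′ to 5′ ratio was 2.21 in replicate 2, against 7.38 in replicate 1. The 5′ probe set of Gapdh read 749 in replicate 2, against 983 in replicate 1, so it lay the other way from β-actin. Its 3′ probe set was also lower in replicate 2, at 11148, against 21130 in replicate 1. The 3′ to 5′ ratio for Gapdh was 14.9 in replicate 2, against 21.5 in replicate 1. Replicate 1 thus had the highest ratio for both controls. Replicate 3 lay between the others for β-actin (4.42) and lowest for Gapdh (14.1). The 3′ probe set of 18S ribosomal RNA read 78759 in replicate 2, against 13587 in replicate 1. Their part in the differences between probe sets of guidance genes was not tested, and the positions of those probe sets in the transcripts were not used here.

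**Figure D4:**
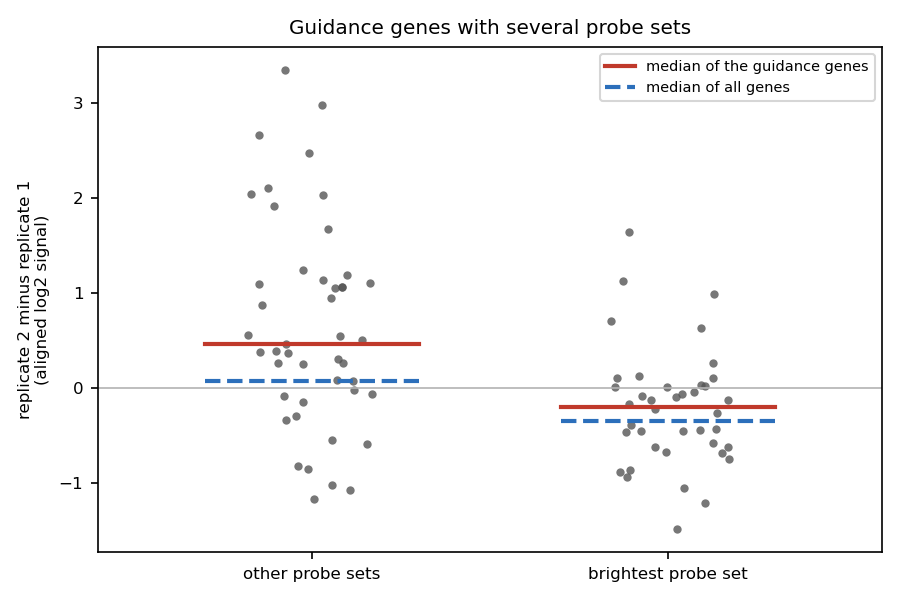
Difference of aligned log2 signal between replicate 2 and replicate 1 (vertical axis) for guidance genes with several probe sets, above background in 3 of 3 samples, split into the 45 other probe sets (left) and the 40 brightest ones (right). Each point is 1 probe set, and lines mark the medians of the guidance genes (solid, 0.47 and -0.19) and of all genes (dashed, 0.07 and -0.34).

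Genes that work with these receptors were also mostly above background. Of co-receptors and modulators 15 of 16 passed background throughout, beside 60.5% of all genes. Among them Flrt2, a ligand of Unc5 receptors, read 44893 in replicate 3, and 31064 and 27073 in replicates 1 and 2. Rgmb, a repulsive guidance molecule and ligand of Neo1, read 3286 in replicate 3, against 602 and 2604 in replicates 1 and 2, and Rgma was above background in no sample. Draxin, a secreted ligand of Dcc, read 510.4 in replicate 3, against 1179.8 and 816 in replicates 1 and 2. Lrig1 read 1088 in replicate 3, against 454 and 468 in replicates 1 and 2. Of intracellular transducers 35 of 41 measured genes were above background throughout, beside the same 60.5%. Dpysl2, which carries semaphorin signals to microtubules, read 46036 in replicate 3, against 32296 and 23965 in replicates 1 and 2. Trio, an exchange factor downstream of Dcc, read 13375 in replicate 3, against 8323 and 7394 in replicates 1 and 2. Others went the other way, such as Rras with 481 in replicate 3, against 1225 and 707 in replicates 1 and 2. Over the 41 measured transducers the median log2 difference of replicate 3 was -0.15 from replicate 1 and -0.02 from replicate 2. Enah, an actin regulator that robos recruit, read 49636 in replicate 3, and 36551 and 57383 in replicates 1 and 2. Of these lists the landmark contrast in limma called 0 of 15 and 0 of 39 at an adjusted p under 0.05, beside 0.0% of all probe sets. At an unadjusted p under 0.05 limma gave 0 and 1, beside 2.08% of all probe sets. Their median SDs were 0.42 and 0.29 on the log2 scale, beside 0.33 over all genes above background throughout.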

How the data were processed

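Total RNA was purified with RNeasy and amplified in 2 rounds, per the labels' protocols, and 1 array was run per sample. For each sample the authors deposited a linear intensity per probe set. The submitters' processing notes name GCOS, with its settings not given in the sources. The mean after trimming 2% at each end was 1500.0 in every deposited column, so the columns shared this mean before any step here. Of 45101 probe sets, 64 controls were set aside; the platform annotation named 1 gene for 34945, more than 1 for 932 and no gene for 9160, and 34741 were matched to RefSeq (GRCm38.p6) by Entrez identifier, with 0 symbols changed.

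Signals were floored at 1, log2 transformed and aligned on the median of the 21612 probe sets above background in 3 of 3 samples, where unaligned medians differed by 0.23. The landmark contrast used lmFit and eBayes of limma 3.58.1 in R 4.3.3, two-sided, with Benjamini-Hochberg adjustment over the 29065 probe sets that passed background in some sample. In a check on simulated data this fit recovered the size of known changes, but its adjusted p had little power to call them. Values in every sample are given for up to 3 of the brightest genes per family, genes above background in some samples, the 5 widest and 5 narrowest, and genes with replicate 3 over 2-fold beyond both others; where genes with agreeing probe sets are described, they were chosen after their values were seen. The members and lists were chosen with earlier results of these data known. Scanner files were not analysed here, so probe summary could not be redone.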

Additional observations from a re-analysis of the deposited data

How the results depend on the processing

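Guidance genes above background in 3 of 3 samples numbered 49, and 44 and 51 with the background at the 99th and 90th percentile, 49 to 52 without each replicate in turn, and 48 without probe sets marked as shared or cross-hybridising. The probe set count of 94 became 86 and 97 at those percentiles and 96 to 98 without each replicate. The median SD of 0.37 ranged from 0.32 without alignment to 0.53 with alignment on the all-probe-set median, and from 0.28 to 0.32 without each replicate. Alignment on the all-probe-set median left the medians of probe sets above background apart by 0.48 on the log2 scale. The landmark contrast called 0 guidance probe sets under each of 6 alternative settings, while over all probe sets limma called 1 when only those above background in 3 of 3 samples were tested and 86 with alignment on the all-probe-set median. Guidance probe sets at an unadjusted p under 0.05 numbered 1, and 4 when only those above background in 3 of 3 samples were tested, 3 without a filter, 3 after quantile normalization and 3 with a variance trend. The 17 probe sets over 2-fold higher in replicate 2 than in replicate 1 became 9 with alignment on the all-probe-set median and 26 when passing background in 1 sample sufficed, alternatives chosen after seeing the data. Except where an alternative tests other probe sets or shifts the samples by its construction, the cause was not tested. No paired analysis was possible because the samples form 1 group. For 28 guidance genes above background throughout, the brightest probe set placed replicate 3 outside both others. Their landmark differences kept their sign in 168 of 168 alternative fits, but most of these could not change it. Other filters, a floor of 16 and the variance trend left the aligned signals of these genes as they were. Only alignment on the all-probe-set median and quantile normalization could alter a sign. With replicate 1 or 2 left out they had no test, and choosing these genes fixes the sign.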
